A study of Mus musculus with 10 samples.

Results

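The transcripts described here are 10 genes of the NRF2 and glutathione defence, namely Nfe2l2, Keap1, Gclc, Gclm, Gsta4, Gstp1, Txnrd1, Srxn1, Hmox1 and Nqo1. They were chosen by symbol as known members of this defence, with earlier results of these data known, and each was found as 1 of the 48897 rows of both expression tables. One table holds prostate epithelium, sorted as EpCAM+ and CD45- cells from C57BL/6 mice aged 3 months. Its 3 control libraries (A, B and C) carry no Arid1a deletion by their labels, and its 3 libraries labelled Arid1a KO (A, B and C) carry Arid1aPC-/-. All 6 came from engineered mice that share a further deletion, so the controls were not wild type. PC stands for deletion by a Cre recombinase under the Probasin promoter, which is active in prostate epithelium. The other table holds Myc-CaP, a prostate cancer cell line of FVB mice that carries a Myc transgene, with 2 libraries of cells with an empty vector (EV) and 2 of cells in which Arid1a was knocked out with a guide RNA. The labels give the cell line as their source, but whether cultured cells or tumours grown from them were sequenced is not settled. Arid1a encodes a DNA-binding subunit of the SWI/SNF chromatin remodelling complex. The libraries labelled Arid1a KO were compared with their own controls within each table, to ask which of these transcripts differed with the Arid1a label.

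NRF2, the protein of Nfe2l2, is a transcription factor that cells keep scarce under resting conditions. KEAP1 binds it and hands it to a ubiquitin ligase, and oxidants or electrophiles that modify cysteines of KEAP1 let NRF2 accumulate. NRF2 then pairs with small MAF proteins on antioxidant response elements and raises genes that make glutathione, recycle thioredoxin and detoxify reactive compounds. Much of this control acts on protein stability, which transcript levels do not show. BACH1 competes for the same elements and is released from them by haem, and Hmox1 is its best known target.

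Before the values, the start regions of the members were read for the letters of 2 motifs, since the members are textbook targets of factors that bind them. The antioxidant response element was searched as TGACNNNGC and the AP-1 site as TGACTCA, both on either strand, in RefSeq windows from 250 bases before to 50 bases after each gene start on GRCm38.p6. The letters TGACTCA followed by GC would match both. Of the 10 members 7 had a window. The element's letters were in a window of 4 members (Nfe2l2, Gclm, Txnrd1 and Srxn1), beside 3781 of 27025 genes with a window (14.0%), 19 of 91 genes of the wider antioxidant list described further on and 12.4% of all 32851 windows. The AP-1 letters were in those of 2 members (Srxn1 and Gstp1), beside 1607 of the 27025 genes (5.95%), 7 of the 91 listed genes and 5.2% of all windows. Keap1 and Nqo1 held neither, which says only that these letters are not in those windows. The stretches around the matches are shown as the sequence in which the letters were found, with the match in capitals, 5′ to 3′ on the strand of the gene. A match on the opposite strand appears as its reverse complement. The first stretch lies upstream of Nfe2l2 at chr2:75704884-75704913 (minus strand), within an annotated exon of another gene. The second lies at the second of 3 annotated starts of Txnrd1, at chr10:82859086-82859145 (plus strand), the third at Srxn1, at chr2:152105404-152105503 (plus strand), the fourth at Gclm, at chr3:122245397-122245456 (plus strand), and the last at Gstp1, at chr19:4037973-4037998 (minus strand). Of the last stretch, 13 bases lie within an exon in the GENCODE M21 annotation. That annotation starts Gstp1 at 4037985, within the match at 4037980-4037986.
Nfe2l2: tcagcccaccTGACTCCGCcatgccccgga
Txnrd1: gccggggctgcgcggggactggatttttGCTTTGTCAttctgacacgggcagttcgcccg
Srxn1: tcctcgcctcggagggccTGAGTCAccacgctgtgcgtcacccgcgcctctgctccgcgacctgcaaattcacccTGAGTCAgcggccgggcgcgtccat
Gclm: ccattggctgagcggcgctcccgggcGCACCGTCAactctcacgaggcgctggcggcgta
Gstp1: tctccaacgtgtTGAGTCAgcatccg
Srxn1 was the only member with more than 1 AP-1 match in the window, and its further match to the element lies after the gene start and is not shown. The match of letters is a description of the sequence, and binding was not examined.

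Some facts of the tables bear on every value. The epithelium was deposited in RPKM (reads per length of gene and per depth of library) and Myc-CaP in TPM (length-scaled values brought to the same sum in each library), so levels were not compared across the tables. Fold changes are log2 differences of the value plus 1, and a gene was called at a limma adjusted p under 0.05. The labels number the libraries but do not say that each came from its own animal or culture, so p-values measure the spread between libraries. Arid1a itself was at 25.4 ± 3.13 RPKM (SD, n = 3) in control epithelium and 30.2 ± 1.23 RPKM (SD, n = 3) in the libraries labelled Arid1a KO, a log2 fold change of 0.25 (limma adjusted p 0.0540), so the label was not borne out by this transcript, whose single value per library would not show the loss of 1 exon. In Myc-CaP it was at 60.7 ± 0.355 TPM with EV and 39.9 ± 0.581 TPM in Arid1a KO (SD, n = 2 each), with -0.59 as the log2 fold change (limma adjusted p 0.0102). Markers of other cells were found in the sorted epithelium. Summed macrophage markers ran from 2311 to 2696 RPKM in control and from 4136 to 4848 RPKM in the libraries labelled Arid1a KO, and 9 of 9 tested markers were called higher (Marco and Vsig4, with means under 0.5 RPKM over all 6 libraries, were not tested and were at 0.0481 and 0.274 RPKM in control and 0.540 and 0.715 RPKM in the libraries labelled Arid1a KO). The summed neutrophil markers ran from 399.6 to 558 and from 725.5 to 962.8 RPKM, with 3 of 8 called higher and 1 lower. Most of that sum's difference was Ltf (89.8 and 401 RPKM), which epithelium can also express. Cxcr2 (7.37 and 18.3 RPKM) and Ly6g (0.409 and 1.13 RPKM) were called higher too, and Camp (0.946 and 0.396 RPKM) was the lower one. S100a8, S100a9, Retnlg and Ngp did not pass. Pan-leukocyte markers summed to between 847.3 and 875.8 and between 1011 and 1084 RPKM (6 of 8 higher, 1 lower), B cell markers to between 125.1 and 140.1 and between 429.9 and 752 RPKM (4 of 5 higher), and erythroid markers to between 472 and 603.8 and between 82.5 and 136.1 RPKM (5 of 5 lower). The summed seminal vesicle markers ran from 19460 to 21980 and from 647.3 to 1632 RPKM, with 8 of 8 called lower. Summed basal markers ran from 1393 to 1976 and from 2406 to 2684 RPKM, with 2 of 5 called higher. In Myc-CaP, macrophage markers summed to at most 2.92 TPM in any library, with C1qa, C1qc, Marco, Cd163 and Vsig4 listed at 0, while of the epithelial markers Epcam and Cdh1 were under 0.2 TPM in the mean of either group and Pbsn was listed at 0. Krt18 was listed at 0 in both EV libraries and averaged 0.545 TPM in Arid1a KO, and Cldn4 averaged 0.0315 and 0.929 TPM. Krt8 was at 0.932 ± 0.201 TPM with EV and 39.6 ± 1.02 TPM in Arid1a KO (SD, n = 2 each).

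In the epithelium, relative to control, 6 of the 10 members were higher and 1 was lower with the Arid1a KO label, by 0.48 to 1.37 on the log2 scale for the higher genes. Nfe2l2, its target genes Txnrd1, Srxn1, Hmox1 and Gclc, and the transferase gene Gsta4 were the higher ones, and Keap1 was the lower one. Gclm, Gstp1 and Nqo1 did not pass. In these bulk libraries a transcript that differs per cell and a different share of the cells that carry it cannot be told apart. This count of 7 called members stands beside a background in which 57.1% of all 16275 tested genes were called, with 27.5% higher and 29.6% lower. Over the members the log2 fold changes had a median of 0.58, and over all tested genes one of -0.028. By the thresholds of the study, an unadjusted p under 0.05 and a change of 1.5-fold, 5 members passed, all higher, beside 24.8% of all tested genes (11.8% higher). The groups did not overlap for 8 members, 6 of them higher and 2 lower, beside 66.7% of all tested genes (32.4% higher and 34.4% lower).

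Nfe2l2, which encodes NRF2 (GRCm38 chr2:75675513-75704641, minus strand), was at 43.0, 37.7 and 39.2 RPKM in controls A, B and C. It was at 85.1, 78.8 and 74.6 RPKM in libraries A, B and C labelled Arid1a KO. Each of the latter lay far above each control, and the spread within either group was small against the gap between them. The means were 39.98 ± 2.77 and 79.5 ± 5.26 RPKM (SD, n = 3 each), which gave a log2 fold change of 0.97 (SE 0.08, limma adjusted p 7.11e-05).

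Keap1, the adaptor that sends NRF2 to degradation (chr9:21229730-21239361, minus strand), was at 21.8, 21.8 and 20.2 RPKM in the control libraries. It was at 17.0, 16.9 and 18.4 RPKM in those labelled Arid1a KO. All 3 of the latter were below all controls, with a narrower gap than for Nfe2l2. The log2 fold change was -0.27 (SE 0.06, limma adjusted p 0.00809), from 21.3 ± 0.892 to 17.4 ± 0.798 RPKM (SD, n = 3 each). The call rests on the scaling, because it was lost when each library was rescaled to the same sum (-0.10, limma adjusted p 0.216), a step that moved the median of all genes from -0.028 to 0.111.

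Because both transcripts were given per length, their ratio within a library could be followed. The ratio of Keap1 to Nfe2l2 was 0.506, 0.579 and 0.516 in the controls (A, B and C) and 0.200, 0.215 and 0.246 in those labelled Arid1a KO. The groups did not overlap, and every library of either group held less Keap1 than Nfe2l2. On the log2 scale the ratio averaged -0.91 ± 0.11 and -2.19 ± 0.15 (SD, n = 3 each), a difference of -1.28. The two-sided exact permutation p was 0.1, the smallest that 3 libraries against 3 allow, and 0.2 after adjustment over the 4 ratios tested in both tables.

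Of the 2 members of glutathione synthesis, Gclc was called and Gclm was not. Gclc encodes the catalytic subunit of glutamate-cysteine ligase, the enzyme of the first and rate-limiting step (chr9:77754535-77794485, plus strand). It was at 10.1, 8.15 and 10.6 RPKM in the control libraries and at 14.3, 13.4 and 13.6 RPKM in those labelled Arid1a KO, without overlap. The means were 9.63 ± 1.31 and 13.8 ± 0.440 RPKM (SD, n = 3 each), which gave a log2 fold change of 0.48 (SE 0.10, limma adjusted p 0.00425). Gclm encodes the modifier subunit, which makes the enzyme more efficient (chr3:122245557-122270732, plus strand). It was at 36.6, 38.0 and 33.4 RPKM in control and at 31.9, 33.6 and 39.2 RPKM in the libraries labelled Arid1a KO, so that the groups overlapped throughout. Its log2 fold change was -0.05, with a 95% interval from -0.26 to 0.17 and a limma adjusted p of 0.680, and its sign turned after rescaling to the same sum (0.13).

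The ratio of Gclm to Gclc was 3.62, 4.66 and 3.14 in the controls (A, B and C) and 2.24, 2.50 and 2.87 in those labelled Arid1a KO. The modifier transcript was the more abundant one in all 6 libraries, and the groups did not overlap. The log2 ratio averaged 1.91 ± 0.29 and 1.34 ± 0.18 (SD, n = 3 each), a difference of -0.57 with an exact permutation p of 0.1, again the smallest possible, and 0.2 after adjustment over 4 ratios.

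**Figure D1:**
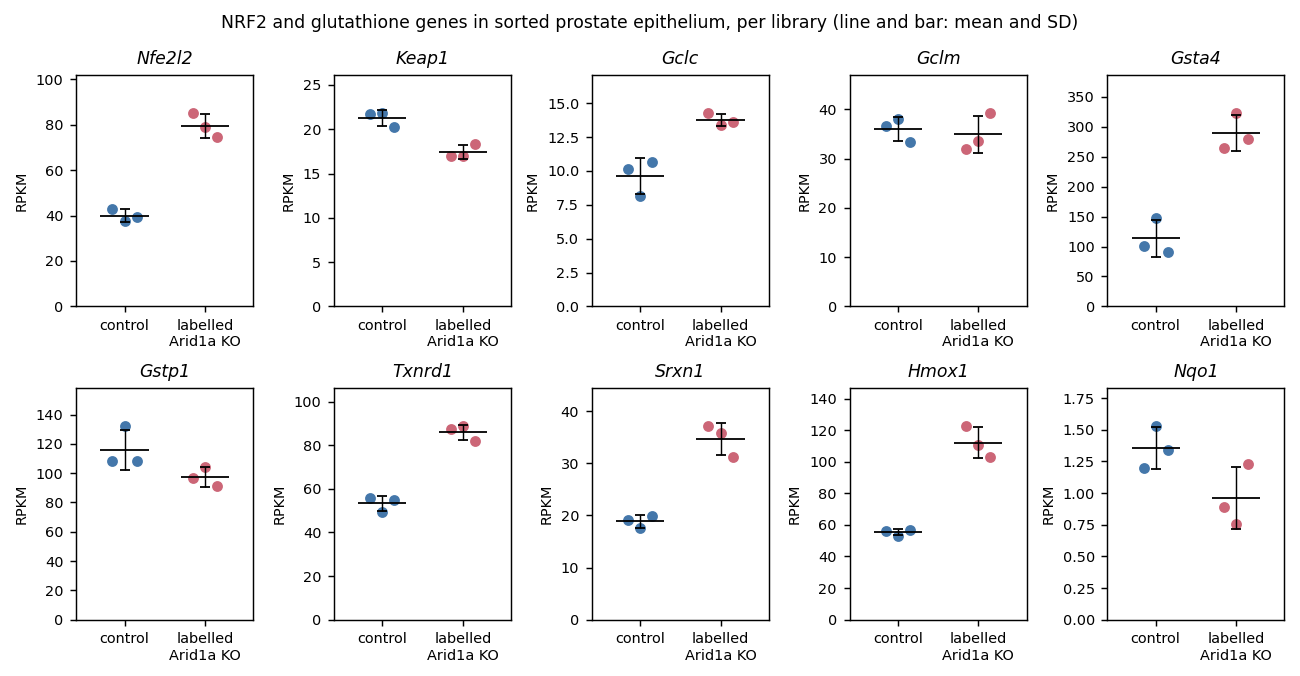
RPKM of the 10 members in the sorted epithelium, with 1 point per library, 3 control libraries (blue) and 3 labelled Arid1a KO (red) in each panel, the mean as a line and the SD as a bar, on linear axes from 0. The red points of Nfe2l2 sit between 74.6 and 85.1 RPKM and the blue ones between 37.7 and 43.0, while those of Gclm and Nqo1 overlap.

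Gsta4, a transferase that conjugates glutathione to the lipid peroxidation product 4-hydroxynonenal (chr9:78182774-78209349, plus strand), had the largest log2 fold change of the members. It was at 101.6, 148.3 and 91.1 RPKM in control and at 264.1, 322.7 and 280.4 RPKM in the libraries labelled Arid1a KO. Library B was the highest of each group, and the lowest library labelled Arid1a KO lay well above the highest control. The means were 113.7 ± 30.4 and 289.1 ± 30.3 RPKM (SD, n = 3 each), which gave a log2 fold change of 1.37 (SE 0.18, limma adjusted p 0.000552).

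Gstp1, the pi-class transferase whose promoter is widely known to be methylated in human prostate cancer (chr19:4035407-4037985, minus strand), was at 108.0, 131.9 and 108.5 RPKM in control. In the libraries labelled Arid1a KO it was at 96.5, 104.5 and 91.1 RPKM. These were all below the controls, but library B of the one group came close to A and C of the other. The log2 fold change was -0.25 (SE 0.10, limma adjusted p 0.0611), which did not pass. It moved to -0.01 after removal of the length trend, to -0.07 after rescaling to the same sum and to -0.15 without control library B. Gstp2, its neighbour, shares sequence with it. Of the stretches of 50 bases in the annotated exons, 33.7% of those of Gstp1 occur in Gstp2 and 49.1% of those of Gstp2 in Gstp1, so reads could be split between them and both values are uncertain. Gstp2 was at 4.25 ± 0.990 and 12.5 ± 3.18 RPKM (log2 fold change 1.35, SD over 3 libraries per group).

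Txnrd1 encodes the cytosolic thioredoxin reductase, which keeps thioredoxin reduced at the expense of NADPH (chr10:82833951-82897712, plus strand). It was at 55.7, 49.5 and 54.9 RPKM in control and at 87.4, 88.6 and 82.0 RPKM in the libraries labelled Arid1a KO. The groups were far apart and each was narrow, with a log2 fold change of 0.68 ± 0.07 (SE) and a limma adjusted p of 2e-04. Srxn1 encodes sulfiredoxin, which repairs over-oxidized peroxiredoxins (chr2:152105516-152111376, plus strand). It was at 19.2, 17.6 and 19.8 RPKM in control and at 37.1, 35.8 and 31.2 RPKM in the libraries labelled Arid1a KO. Here too the groups did not overlap, with a log2 fold change of 0.85 ± 0.08 (SE) and a limma adjusted p of 0.000165.

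Hmox1 encodes haem oxygenase, which breaks haem down to biliverdin, iron and carbon monoxide (chr8:75093621-75100589, plus strand). It was at 55.98, 53.1 and 56.6 RPKM in control and at 122.3, 110.8 and 103.0 RPKM in the libraries labelled Arid1a KO. All of the latter were far above the controls, which differed little from each other. The means were 55.3 ± 1.88 and 112.1 ± 9.69 RPKM (SD, n = 3 each), which gave a log2 fold change of 1.0 (SE 0.08, limma adjusted p 6.28e-05). Macrophages also express Hmox1. The 9 tested macrophage markers were higher in the same libraries by ratios of the means from 1.39 for C1qb to 2.44 for Lyz2, with 1.43 for Cd163, 1.44 for C1qa, 1.49 for C1qc, 1.70 for Csf1r, 1.82 for Adgre1, 1.89 for Cd68 and 2.39 for Mrc1, beside 2.03 for Hmox1 and 1.99 for Nfe2l2, and their part in the members' values was not tested.

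Nqo1, a quinone reductase often used as the readout of NRF2 (chr8:107388225-107403206, minus strand), was the least abundant member. It was at 1.197, 1.53 and 1.34 RPKM in control and at 0.889, 0.757 and 1.23 RPKM in the libraries labelled Arid1a KO. Library C of the latter overlapped the controls and the other two lay below them. The log2 fold change was -0.27 (SE 0.12, limma adjusted p 0.0792). Without Arid1a KO library C it passed as lower (-0.37, limma adjusted p 0.0287), and after removal of a trend on gene length it was -0.03.

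The levels per length put the members in the following order. In control epithelium Gstp1 (116.1 RPKM) and Gsta4 (113.7 RPKM) led and their ranges overlapped, followed by Hmox1 and Txnrd1, whose ranges overlapped too, and by Nfe2l2 and Gclm, again overlapping. Keap1, Srxn1, Gclc and Nqo1 followed in that order with separate ranges. In the libraries labelled Arid1a KO, Gsta4 (289.1 RPKM) stood alone at the top, Hmox1 and Gstp1 overlapped below it, then Txnrd1 and Nfe2l2, and then Gclm and Srxn1, with Keap1, Gclc and Nqo1 last and separate.

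In Myc-CaP none of the members was called. Of the 9 tested, 0 passed a limma adjusted p of 0.05, beside 6.43% of all 13974 tested genes (4.54% higher and 1.89% lower). An unadjusted p under 0.05 was found for 4, and the share of all tested genes with such a p was not counted. By the thresholds of the study 0 passed, beside 6.28% of all tested genes (4.62% higher and 1.66% lower). EV and Arid1a KO libraries were apart, without overlap, for 7 members, 4 of them higher and 3 lower, beside 51.5% of all tested genes (24.9% higher and 26.6% lower), and the 9 members had a median of 0.10 in log2 fold change.

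Hmox1 came closest to the threshold and lay in the other direction than in the epithelium. It was at 33.1 and 36.5 TPM in EV libraries 1 and 2 and at 26.5 and 25.4 TPM in Arid1a KO libraries 1 and 2. Both of the latter were below both of the former, with a log2 fold change of -0.41 ± 0.08 (SE) and a limma adjusted p of 0.0547. It passed under a minimum mean of 5 TPM (limma adjusted p 0.0393), under quantile normalization (0.0402) and after removal of a trend on gene length (0.0386), so this call depends on the setting.

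Txnrd1 was at 227.5 and 237.2 TPM with EV and at 198.7 and 203.6 TPM in Arid1a KO, without overlap. Its log2 fold change of -0.21 ± 0.05 (SE) had a limma adjusted p of 0.103. Nfe2l2 was at 36.3 and 38.2 TPM with EV and at 33.9 and 36.3 TPM in Arid1a KO, where the higher value almost met the lower one with EV. Its log2 fold change was -0.08, with a 95% interval from -0.27 to 0.10 (limma adjusted p 0.564). Keap1 was at 51.3 and 49.9 TPM with EV and at 55.9 and 53.1 TPM in Arid1a KO, without overlap but with a log2 fold change of 0.10 (95% interval -0.06 to 0.26, limma adjusted p 0.413).

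Both subunits of glutamate-cysteine ligase were abundant in Myc-CaP. Gclm was at 99.3 and 106.9 TPM with EV and at 117.4 and 128.7 TPM in Arid1a KO, without overlap (log2 fold change 0.25 ± 0.07 SE, limma adjusted p 0.134). Gclc was at 97.0 and 105.2 TPM with EV and at 108.8 and 112.9 TPM in Arid1a KO, also without overlap (0.13 ± 0.06 SE, limma adjusted p 0.323). The 2 subunits were thus at nearly equal levels, with a ratio of Gclm to Gclc of 1.02 and 1.02 in the EV libraries and 1.08 and 1.14 in Arid1a KO. The ratio of Keap1 to Nfe2l2 was 1.41 and 1.31 with EV and 1.65 and 1.46 in Arid1a KO, so that Keap1 was the more abundant of the pair in every Myc-CaP library. With 2 libraries against 2 the exact permutation p of both ratios was 0.333, the smallest possible.

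Gsta4 was at 7.97 and 8.12 TPM with EV and at 9.47 and 10.0 TPM in Arid1a KO, without overlap (log2 fold change 0.25 ± 0.09 SE, limma adjusted p 0.219). Gstp1 was at 246.2 and 221.6 TPM with EV and at 284.1 and 238.5 TPM in Arid1a KO, which overlapped (0.16, 95% interval -0.12 to 0.43, limma adjusted p 0.467). Srxn1, at 79.7 and 84.5 TPM with EV and at 81.2 and 85.5 TPM in Arid1a KO, overlapped throughout (0.02, 95% interval -0.14 to 0.18, limma adjusted p 0.885). Nqo1 was listed at 0 in library 1 of both groups and was at 0.167 TPM in EV library 2 and 0.170 TPM in Arid1a KO library 2, under the minimum for a test. Gstp1 and Txnrd1 therefore led the members in this line, and Gsta4 and Nqo1 were last.

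**Figure D2:**
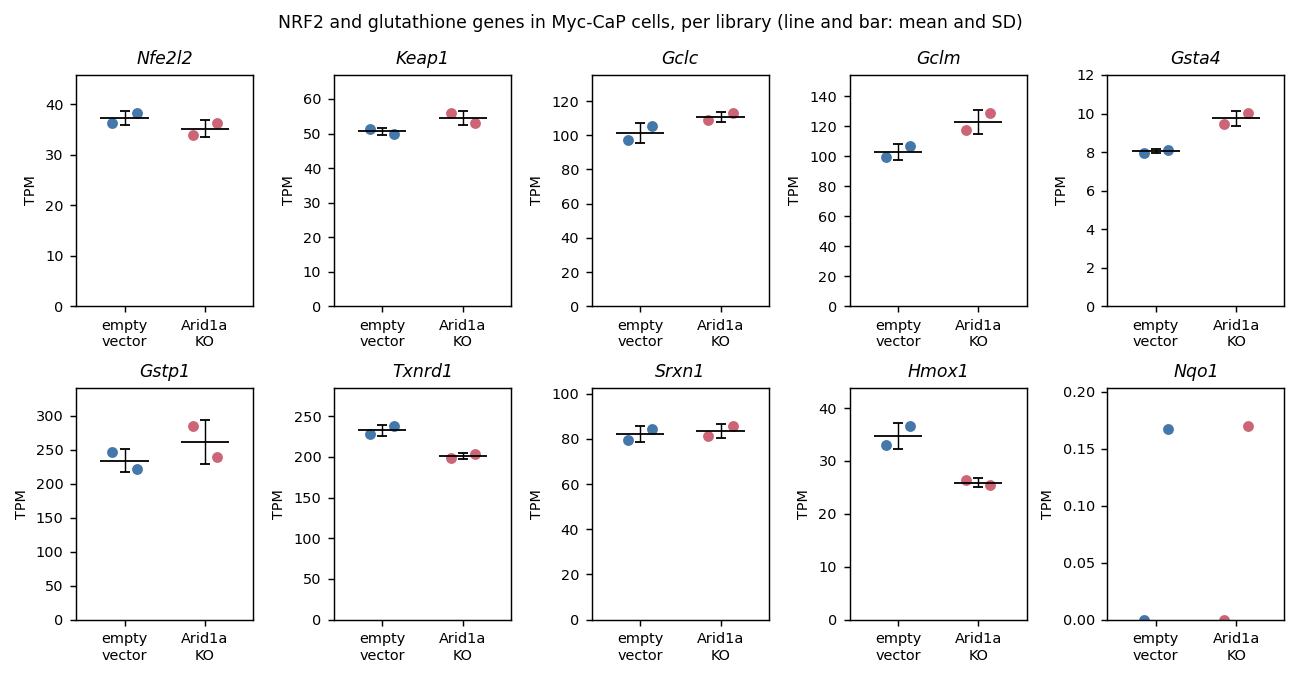
TPM of the 10 members in Myc-CaP, with 1 point per library, 2 EV libraries (blue) and 2 Arid1a KO libraries (red) in each panel, the mean as a line and the SD as a bar (neither is drawn for Nqo1, listed at 0 in 1 library of each group), on linear axes from 0. The red points of Hmox1 lie at 25.4 and 26.5 TPM, below the blue ones at 33.1 and 36.5 TPM, and those of Srxn1 overlap.

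**Figure D3:**
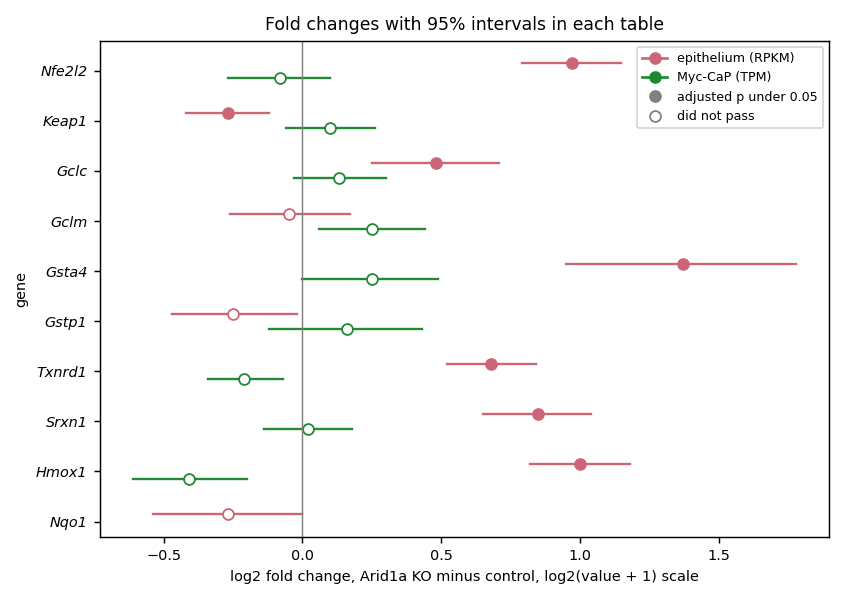
Log2 fold change of each member, Arid1a KO minus control on the log2(value + 1) scale, with its 95% interval from limma, in the epithelium (red) and in Myc-CaP (green), where filled points passed a limma adjusted p of 0.05 and open points did not. The epithelium values run from -0.27 for Keap1 to 1.37 for Gsta4, the Myc-CaP values from -0.41 to 0.25, and Nqo1 has no Myc-CaP value.

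To set the members in their pathway, 105 other genes of NRF2 control, glutathione metabolism and antioxidant defence were listed by function, of which 103 were in the tables. In the epithelium 100 were tested, and 73 of them (73.0%) were called, 27 of them higher and 46 lower with the Arid1a KO label, beside the 27.5% and 29.6% of all tested genes. Their log2 fold changes had a median of -0.17. Higher and lower genes were found in each of the 8 sub-lists.

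Among the regulators and partners of NRF2, 5 of 12 were higher and 3 lower. Bach1, the repressor that competes with NRF2, rose from 10.04 ± 1.65 to 22.5 ± 1.16 RPKM (log2 fold change 1.10, SD over 3 libraries per group). Btrc, which encodes a ubiquitin ligase adaptor that can also target NRF2, fell from 6.02 ± 0.611 to 3.72 ± 0.274 RPKM (-0.57).

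Of 10 genes of glutathione synthesis and cystine supply, 2 were higher and 6 lower. Slc7a11, the cystine importer xCT that supplies cysteine for glutathione, rose from 5.55 ± 0.370 to 15.1 ± 2.32 RPKM (1.29). Ggt1, which cleaves glutathione outside the cell, fell from 24.3 ± 1.89 to 1.97 ± 0.491 RPKM (-3.10).

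Of 13 genes of glutathione and peroxide reduction, 2 were higher and 5 lower. Gsr, the reductase that regenerates glutathione, rose from 36.7 ± 1.25 to 80.5 ± 5.19 RPKM (1.11), and Gpx3, a secreted glutathione peroxidase, fell from 393.3 ± 37.6 to 147.2 ± 23.2 RPKM (-1.42). Of 13 thioredoxin and peroxiredoxin genes, 1 was higher and 7 lower. The higher one was Sesn2, a stress-induced sestrin (0.54), and the largest fall was that of Prdx6 (-0.74), a peroxiredoxin that also acts on phospholipids. Txnrd1 and Srxn1 thus lay against the direction of most called genes of their own system.

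Glutathione transferases had the highest share of calls, with 4 of 20 tested higher and 14 lower. By class, singled out after the values were seen and with no test between classes, the counts were as follows. All 6 tested genes of the mu class (Gstm) were lower, by -0.38 to -2.90 on the log2 scale, and the summed mean of the class was 236.2 RPKM in control and 60.6 RPKM in the libraries labelled Arid1a KO. Both genes of the omega class (Gsto) were higher, with a summed mean of 414 and 1380 RPKM. Nearly all of it was Gsto1, which rose from 410.7 ± 64.9 to 1372 ± 96.7 RPKM (log2 fold change 1.75, SD over 3 libraries per group). Of the alpha class (Gsta), 3 genes were tested with Gsta4 included, and the other 2 were lower, down to -1.34. All 3 genes of the theta class (Gstt) were lower as well, while 1 of 2 of the pi class was higher and 1 of 3 microsomal genes (Mgst) was lower. The largest fall was that of Gstm7, from 18.5 ± 1.003 to 1.75 ± 1.15 RPKM (-2.90). Genes of one class resemble each other in sequence, and reads could be split between them.

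The remaining sub-lists were more even. For NADPH supply 3 of 7 genes were higher and 3 lower, led by G6pdx (0.49), the first enzyme of the pentose phosphate pathway, and by Pgls (-0.55), the next one. Of 10 genes of haem and iron handling, 5 were higher and 3 lower, led by Alas1 (0.61), which starts haem synthesis, and Blvrb (-0.30), a biliverdin reductase that did not pass once libraries were rescaled to one sum. Of 15 tested detoxification and export genes 5 were higher and 5 lower, led by Aldh3a1 (1.52), an aldehyde dehydrogenase, and Ptgr1 (-1.45), a reductase of prostaglandins and alkenals. The limma adjusted p of these 16 named genes was at most 0.0105, that of Pgls.

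In Myc-CaP 85 of the listed genes were tested and 20 (23.5%) were called, with 14 higher and 6 lower, beside 6.43% of all tested genes. With any 1 of the 4 libraries left out, which leaves 2 libraries against 1, these calls were lost. How many of all tested genes stayed called in such a fit was not counted. None of the 10 tested regulators and partners was called, with 2 at an unadjusted p under 0.05, for which no share of all tested genes was counted. Chac1, which degrades glutathione inside the cell, rose from 28.5 ± 0.312 to 49.8 ± 0.582 TPM (log2 fold change 0.78, SD over 2 libraries per group). Gpx3 rose from 147.6 ± 0.396 to 255.3 ± 18.3 TPM (0.78), while Gpx1, the cytosolic glutathione peroxidase, fell from 642.6 ± 35.5 to 447.4 ± 1.05 TPM (-0.52). Sesn1 was higher (0.72) and the mitochondrial reductase gene Txnrd2 lower (-0.50). Of the transferases, 3 of 11 were higher and 2 lower, led by the microsomal genes Mgst3 (1.11) and Mgst2 (-0.89). Tkt, of the pentose phosphate pathway (0.73), the ferritin gene Fth1 (0.51) and the epoxide hydrolase gene Ephx1 (1.24) were higher, and the exporter gene Abcc3 was lower (-1.01). The limma adjusted p of these named genes was at most 0.0341, that of Mgst3.

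**Figure D4:**
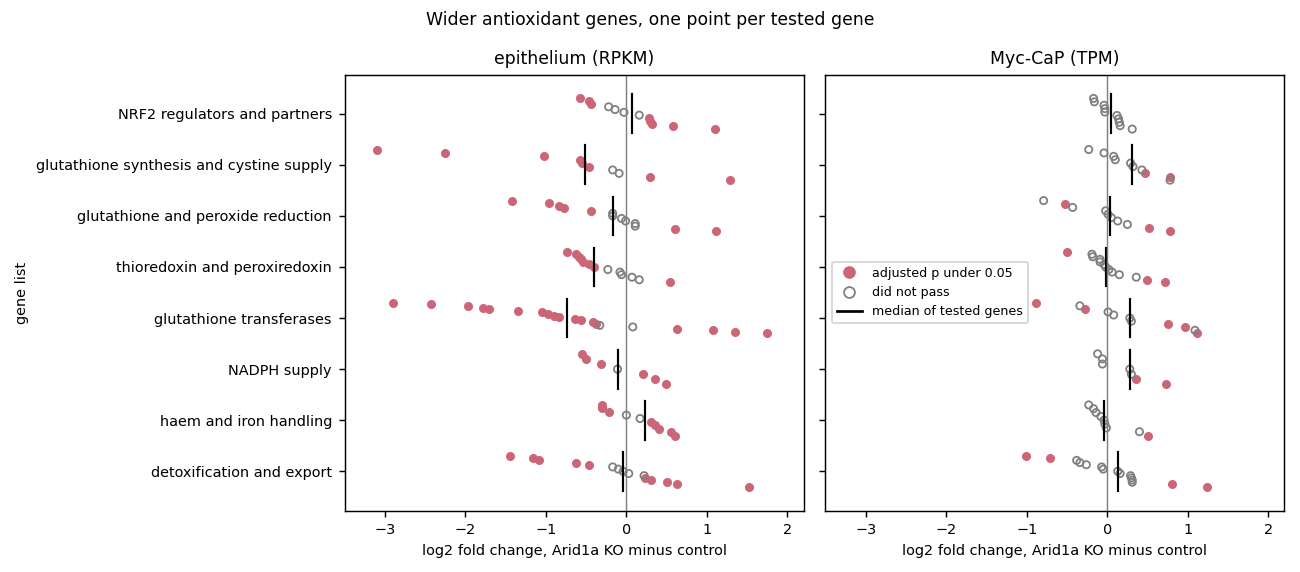
Log2 fold change (Arid1a KO minus control, log2(value + 1) scale) of each tested gene of the 8 sub-lists in the epithelium (left) and Myc-CaP (right), with called genes filled, other genes open and the median of each sub-list as a black line. In the epithelium called genes lie on both sides of 0 in each sub-list, and 14 of the 18 called transferases lie to the left of 0.

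**Figure D5:**
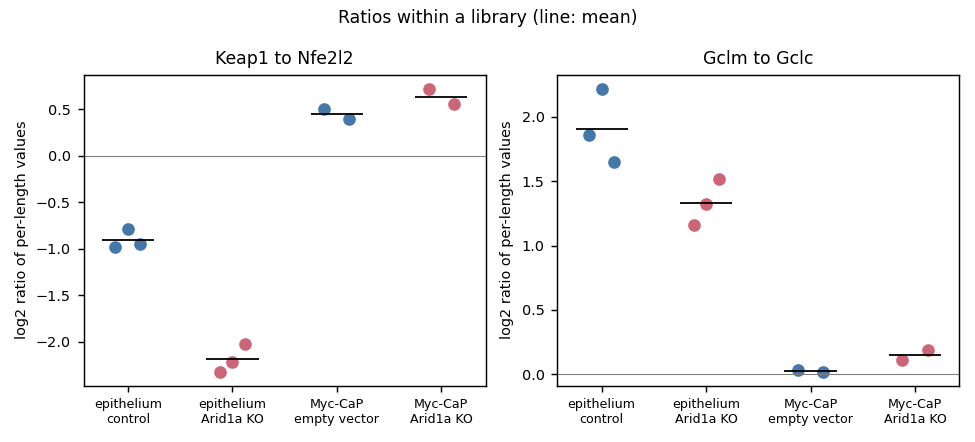
Log2 ratio of Keap1 to Nfe2l2 (left) and of Gclm to Gclc (right) within each library, from per-length values, with 1 point per library and the group mean as a line. The Keap1 to Nfe2l2 ratio averages -0.91 in control epithelium and -2.19 in the libraries labelled Arid1a KO and lies above 0 in Myc-CaP, and the levels of the 2 tables were not tested against each other.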

How the data were processed

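RNA-seq of 6 epithelium and 4 Myc-CaP libraries was used. The authors deposited RPKM for the epithelium and TPM for Myc-CaP, per gene and library. The study describes strand-specific alignment with TopHat2 to mm10 and HTSeq-count, while the submitters' processing notes name HISAT2, HTSeq and DESeq2. Gene lengths behind the values are not given in the sources used here. The growth text of the labels describes culture of Myc-CaP cells. The methods of the study mention sequencing of wild-type and Arid1a KO Myc-CaP cells, and also of subcutaneous tumours of this line. Which of them these libraries are is not settled.

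Reads per gene were not recovered, so no count test was run. Steps between low RPKM values gave an estimated depth of 28.8 to 36.3 (in units of 1e+06 reads), with 20.1% to 23.2% of low values within 0.02 reads of a whole number, and TPM keeps no depth. Therefore no counting interval is given.

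Genes whose mean reached 0.5 were fitted on log2(value + 1) with limma 3.58.1 in R 4.3.3 (lmFit, eBayes with trend), each table on its own with no covariate. The study's DEGseq test needs counts. P-values were two-sided and adjusted by Benjamini-Hochberg over all tested genes. The fold changes understate those of low genes. The fit was tested on simulated data.

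Coordinates are from GENCODE M21 (GRCm38) and start regions from RefSeq (GRCm38.p6). Members and lists were chosen with earlier results of these data known. Besides members and Arid1a, the called gene with the largest rise and the largest fall of each sub-list was named. Gstp2, the classes of transferases and the single markers were singled out after their values were seen. A further allele shared by all epithelium mice and some marker genes are not reported here.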

Additional observations from a re-analysis of the deposited data

Results flagged for a closer look

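Some genes had log2 fold changes in opposite directions in the 2 tables, with every Arid1a KO library beyond every control library in each. How many of all tested genes do so was not counted. Groups without overlap, in either direction, were found for 66.7% of tested genes in the epithelium and 51.5% in Myc-CaP. The tables were normalized separately, so no test of the difference was made. The epithelium value is given first and the Myc-CaP value second. Among the members these were Nfe2l2 (0.97 and -0.08), Keap1 (-0.27 and 0.10), Hmox1 (1.0 and -0.41) and Txnrd1 (0.68 and -0.21), where 0 of the Myc-CaP values passed a limma adjusted p of 0.05 and 2, those of Hmox1 and Txnrd1, had an unadjusted p under 0.05. For Nfe2l2 in Myc-CaP the higher Arid1a KO library (36.31 TPM) almost met the lower EV library (36.34 TPM).

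Among the named genes of the wider list these were Bach1 (1.10 and -0.17), Btrc (-0.57 and 0.31), Ggt1 (-3.10 and 0.78), Gpx3 (-1.42 and 0.78), Gsto1 (1.75 and -0.28), Gstm7 (-2.90 and 1.09), Pgls (-0.55 and 0.28), Chac1 (-1.02 and 0.78) and Ephx1 (-0.17 and 1.24). Gpx3, Gsto1 and Chac1 passed in both tables, with limma adjusted p of 0.00726, 0.0463 and 0.00601 in Myc-CaP. Ephx1 passed only in Myc-CaP (limma adjusted p 0.0148, beside 0.0804 in the epithelium), and the others passed only in the epithelium.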

How the results depend on the processing

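In the epithelium the count of 7 called members lay between 6 and 8 under the alternatives of scaling, filter, pseudocount, variance trend and replicate block, and between 7 and 8 when 1 library was left out. With the thresholds of the study it was 5. The count of 73 called pathway genes became 36 under the thresholds of the study, beside 24.8% of all tested genes. Under the alternatives listed above it lay between 56 (of 103 tested, no filter on low values) and 75 (rescaled to the same sum). With a minimum mean of 5 it was 63 of 87 tested. It lay between 67 and 71 when 1 library was left out. In Myc-CaP the count of 0 called members became 1 (Hmox1, lower) under a minimum mean of 5, quantile normalization or removal of the length trend, and was 0 with any 1 library left out. The count of 20 called pathway genes became 0 with no filter on low values and 10 without a trend in eBayes, and was 0 with any 1 library left out. Outside the thresholds of the study, the share of all tested genes called under each alternative was not counted. Whether these counts moved with the whole table is therefore not known, and the cause was not tested. With 2 libraries a group, 1 library left out leaves a lone library that is assumed to vary like the others.

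Libraries share letters or numbers across groups. Deviations of same-lettered epithelium libraries correlated at 0.04, 0.01 and -0.06 across genes, and those of differently lettered ones at -0.08 to 0.08. This shows no sign of pairing but does not exclude it. Deviations of same-numbered Myc-CaP libraries correlated at 0.19 and of differently numbered ones at -0.19. With 2 pairs and nothing in the labels this does not settle whether they were paired. With the replicate block, 8 epithelium members (Gstp1 lower, limma adjusted p 0.0315) and 69 pathway genes were called. In Myc-CaP the block gave 4 members (Hmox1 and Txnrd1 lower, with limma adjusted p of 0.0185 and 0.00981, and Gclm and Gstp1 higher, with 0.0092 and 0.0388) and 41 pathway genes. The share of all tested genes called with the block was not counted, so these counts cannot be set beside a background. No called fold change of a member changed sign under any alternative.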
